A study of Mus musculus with 3 samples.

Results

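Transforming growth factor beta (TGF-β) ligands, receptors and response genes were followed across the epithelial, immune and mesenchymal cells of cultured mouse thymus. The 7 genes, of 32285 in the matrix, were taken by symbol: the ligands Tgfb1, Tgfb2 and Tgfb3, the receptors Tgfbr1 and Tgfbr2, and the response genes Pmepa1 and Tgfbi. They were chosen by their levels and ORFTOC over FTOC ratios in earlier results of these data, so every level and ratio below is a description and none was tested. The study asked whether thymic epithelial cells (TECs) grown as organoids can carry T-cell development when reaggregated with other thymic cells. Single-cell RNA sequencing was made on 1 lane of a droplet-based 5′ kit that held 2 pools of cells after 13 days of culture, both wild type (label WT) and labelled "No treatment". The ORFTOC pool came from organoid reaggregate fetal thymic organ cultures, made from fetal TECs grown as organoids in a medium with FGF7, mouse embryonic fibroblasts, and fetal thymus cells depleted of EpCAM-positive cells. For the FTOC pool, fetal thymic lobes were cultured intact and without added fibroblasts. Per the paper, reaggregates and lobes were kept in the same medium, which also held FGF7. The TECs of ORFTOC came from older embryos than the FTOC lobes and had already been grown as organoids. Donor stage and earlier culture therefore cannot be told apart from the pool. Both pools combined 2 cultures before they received a barcoded antibody (hashtag 2 for ORFTOC, hashtag 1 for FTOC). Cultures of the same pool could therefore not be separated, and each pool counted as 1 sample without replicates.

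TGF-β ligands are secreted in a latent complex and must be released before they bind. The active dimer binds the type II receptor, which recruits and phosphorylates the type I receptor, and the type I receptor in turn phosphorylates Smad proteins that move to the nucleus with Smad4. In the thymus the pathway is known for its effects on the epithelium, on thymocyte selection and on regulatory and innate-like T cells.

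After filtering, 8392 cells remained, 4248 of ORFTOC (42775371 unique molecular identifiers, UMIs, with a median of 8053 per cell) and 4144 of FTOC (29250988 UMIs, median 4952). Epithelial cells numbered 1225 in ORFTOC and 961 in FTOC, immune cells 2811 and 3128, and mesenchymal cells 212 and 55. Epcam, the epithelial adhesion molecule, stood at 1156 and 1173 counts per 1000000 UMIs (CPM) in epithelial cells of ORFTOC and FTOC. Ptprc, which encodes the pan-leukocyte protein CD45, stood at 439 and 550.5 CPM in immune cells, and the fibroblast receptor gene Pdgfra at 301 and 392 CPM in mesenchymal cells. The pools also differed in sex-linked genes: in epithelial cells Eif2s3y, on the Y chromosome, stood at 40.6 CPM in ORFTOC and had no UMI in FTOC. Sex and culture cannot be told apart in the sums, so some levels are also given for cells with Xist and no Y-linked UMI. These are Pmepa1 in epithelial and mesenchymal cells, Tgfbi in immune and mesenchymal cells, and Tgfb3 in mesenchymal cells. Levels of other genes are not given this way. The compartments were split into 23 populations (8 epithelial, 13 immune and 2 mesenchymal), which carry the name of a cell class with "-like" where marker genes allowed one and their leading genes otherwise. Levels are CPM of UMIs summed over the cells of a population, with exact Poisson 95% intervals, and ratios are ORFTOC over FTOC with exact conditional binomial 95% intervals. These intervals cover counting error only.

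The members lie on 7 chromosomes of build GRCm38. Tgfb1 spans chr7:25687002-25705077, Tgfb2 chr1:186622787-186709697 and Tgfb3 chr12:86056743-86079041. Tgfbr1 spans chr4:47353222-47414926 and Tgfbr2 chr9:116087695-116175363. Pmepa1 spans chr2:173224458-173276731 and Tgfbi chr13:56609586-56639359. Promoter windows from 250 bases before to 50 after the start were taken from RefSeq (GRCm38.p6) for 5 of the 7 members, with 2 starts for Tgfbr1. No window was used for Pmepa1 or Tgfb3. Smad proteins bind the letters CAGAC, also called a Smad box, which were searched on both strands, as was the AP-1 motif TGANTCA. The promoter of Tgfbi is shown because its level was past 2-fold between the pools in 2 compartments. It spans chr13:56609336-56609635 on the plus strand, and capitals mark the Smad boxes, both of which lie on the minus strand and so read GTCTG.
Tgfbi: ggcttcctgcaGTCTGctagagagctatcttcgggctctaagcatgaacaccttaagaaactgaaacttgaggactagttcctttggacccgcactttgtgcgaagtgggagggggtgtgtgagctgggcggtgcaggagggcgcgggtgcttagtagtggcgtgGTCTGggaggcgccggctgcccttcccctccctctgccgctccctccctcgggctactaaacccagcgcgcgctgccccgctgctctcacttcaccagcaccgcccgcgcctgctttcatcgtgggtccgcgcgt
The boxes start 239 and 85 bases before the start of the gene. Tgfb2 held 2 Smad boxes, at -221 and -204, Tgfbr2 held 1 at -160, the downstream start of Tgfbr1 held 1 at -203, and the window of Tgfb1 and the other of Tgfbr1 held none. A Smad box was present in 49.6% of the 32851 promoters of the same length. The AP-1 motif was in none of these windows and in 7.81% of all promoters.

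The UMIs of the members were spread unevenly over the compartments. Of the UMIs of Tgfb1, 80.8% came from immune cells, which made up 70.8% of all cells. Tgfb3 was mostly epithelial, with 73.7% of its UMIs in epithelial cells (26.0% of cells) and 20.6% in mesenchymal cells (3.18% of cells). Tgfb2 was divided between epithelial (50.7%) and mesenchymal cells (46.4%), and 2.84% of its UMIs came from immune cells. Of these 25 immune UMIs, 14 lay in a cluster led by Pth and Chga that held epithelial and immune markers together. Tgfbr1 was shared by epithelial (42.9%) and immune cells (51.8%), and Tgfbr2 was found in immune (64.2%), mesenchymal (20.3%) and epithelial cells (15.6%). Pmepa1 was spread over all 3, with 29.7% epithelial, 40.9% immune and 29.4% mesenchymal UMIs. Tgfbi came about equally from epithelial (45.4%) and immune cells (46.2%), with 8.32% from mesenchymal cells. These shares depend on how many cells of each kind were sampled and on the RNA per cell, which the CPM values below separate in part. As a reference for free RNA, barcodes with at most 100 UMIs held 73.4 CPM of Tgfb1, 6.83 of Tgfb2, 15.8 of Tgfb3, 41.0 of Tgfbr1, 64.0 of Tgfbr2, 68.7 of Pmepa1 and 39.1 of Tgfbi. These are levels within free RNA and not the amount it adds to a cell. The ambient correction assumed that free RNA made up 5% of a cell's UMIs.

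**Figure D1:**
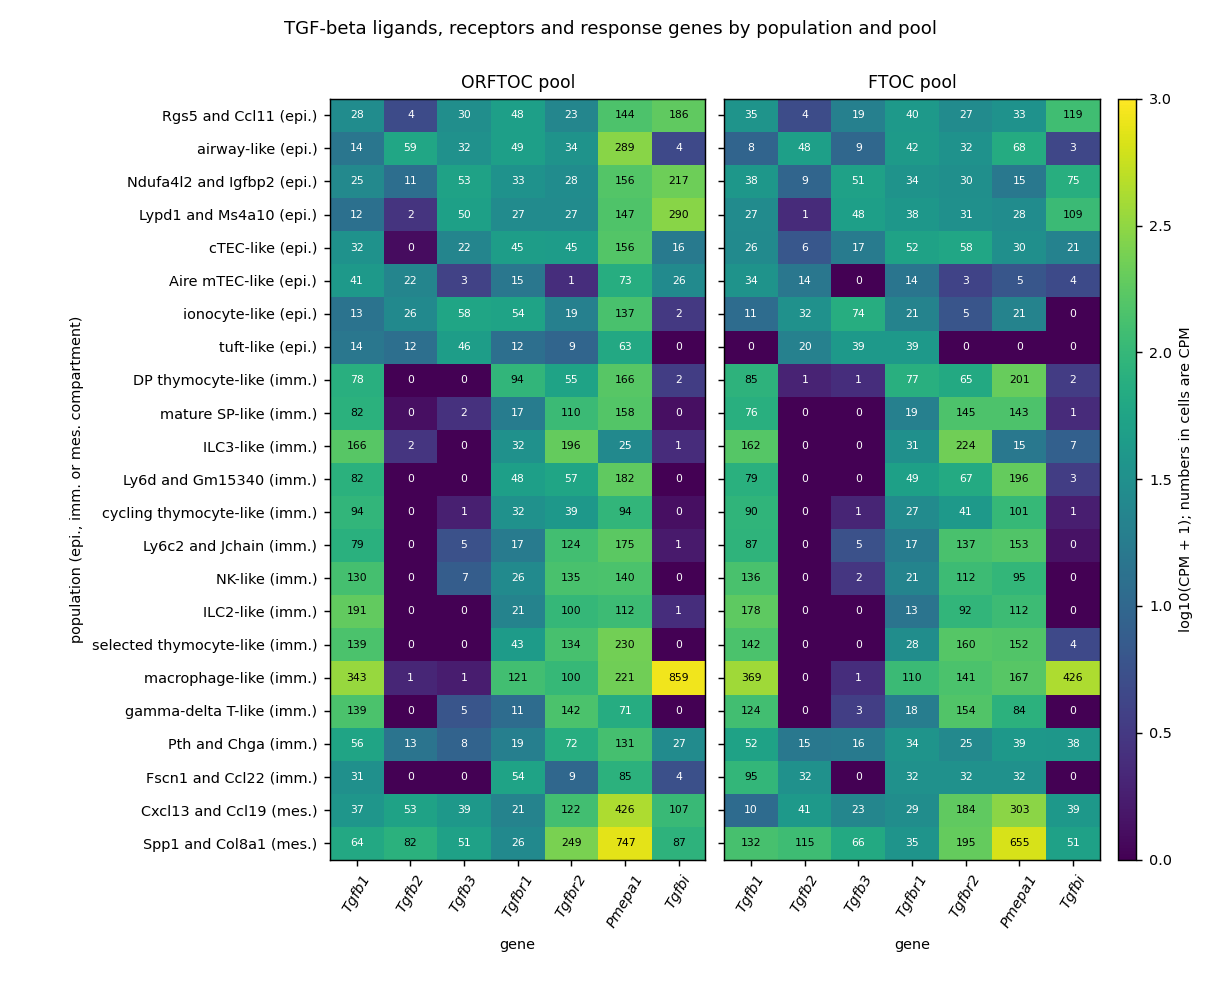
Level of the 7 members in each of the 23 populations (rows), for the ORFTOC pool (left) and the FTOC pool (right). The colour is log10(CPM + 1) of UMIs summed over the cells of a population. Tgfbi is brightest in macrophage-like cells of both pools (859 and 426 CPM), and Pmepa1 is brighter in the epithelial rows of ORFTOC than of FTOC.

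Between the pools, 1 of the 7 members was past 2-fold in epithelial cells, against 5.84% of the 9539 genes that reached 10 CPM in at least 1 pool. This member was Pmepa1. In immune cells 5 members reached 10 CPM, while Tgfb2 and Tgfb3 did not, and 1 of the 5 (Tgfbi) was past 2-fold, against 4.91% of 8538 genes. In mesenchymal cells 1 of 7 (Tgfbi) was past 2-fold, against 6.79% of 9199 genes. All 3 of these ratios were higher in ORFTOC. With another hashtag rule, under which the larger hashtag had to hold 80% of at least 20 hashtag UMIs, 2 members were past 2-fold in mesenchymal cells, Tgfbi and Tgfb3. The median log2 ratio of the members that reached 10 CPM was 0.25 in epithelial, 0.23 in immune and 0.08 in mesenchymal cells, beside 0.01, -0.06 and -0.10 for all genes. Since the members were chosen with these ratios known, nothing is read from the counts.

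**Figure D2:**
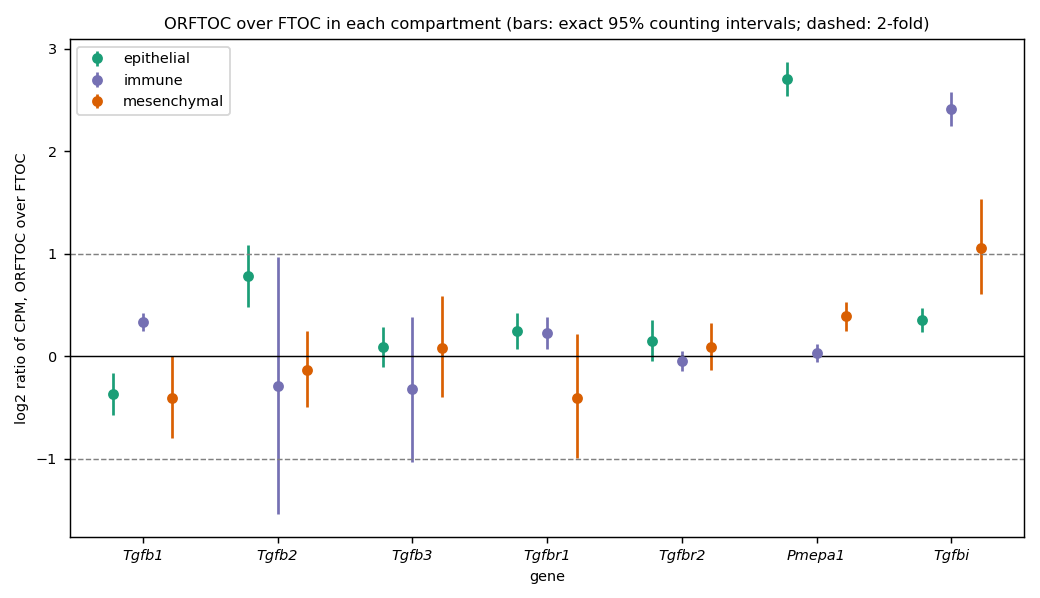
Log2 ratio of CPM, ORFTOC over FTOC, of each member in epithelial, immune and mesenchymal cells. Points are ratios of summed UMIs and bars exact 95% counting intervals. Pmepa1 in epithelial cells (2.71) and Tgfbi in immune (2.41) and mesenchymal cells (1.06) lie above 1.

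Tgfb1, known as the main TGF-β ligand of leukocytes, was highest in macrophage-like cells. It stood there at 343 CPM in ORFTOC and 369 CPM in FTOC, a ratio of 0.931 (0.809 to 1.07). ILC2-like cells, a class of innate lymphoid cells, followed with 191 and 178 CPM, and ILC3-like cells with 166 and 162 CPM. Their levels over both pools, 189.7 (168 to 213) and 165 CPM (150.1 to 180.5), overlapped in their intervals, whereas the macrophage-like level of 349 CPM (329 to 369) stood apart. Selected thymocyte-like cells, at 140.5 CPM over both pools (109 to 178), overlapped both. The other populations named as thymocytes were lower. Of these, the cycling one was named from cell-division genes only (Mki67, Top2a, Cdk1, Ccnb1 and Birc5), a list without a thymocyte gene. Cells with the markers of double-positive (DP) thymocytes stood at 78.1 CPM in ORFTOC and at 84.9 in FTOC, cycling thymocyte-like cells at 93.7 and 90.2, and mature single-positive (SP)-like cells at 81.6 and 76.0. In all 13 immune populations the counting intervals of the 2 pools' ratio held 1. Tgfb1 summed over immune cells was nevertheless 139 CPM in ORFTOC and 110.3 in FTOC (ratio 1.26, 1.19 to 1.34). With the ORFTOC levels weighted by the FTOC class shares the log2 ratio was -0.02, and with FTOC levels and ORFTOC shares it was 0.36, beside 0.34 as observed.

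In epithelial cells Tgfb1 stood at 23.7 CPM in ORFTOC (408 UMIs) and 30.6 CPM in FTOC (382 UMIs), a ratio of 0.773 (0.671 to 0.891). Both values were below the 73.4 CPM of barcodes without cells, a level within free RNA and not the amount it adds to cells. Among epithelial clusters the ratio was lowest in the cluster led by Lypd1 and Ms4a10, with 11.7 CPM in ORFTOC and 26.8 in FTOC (0.435, 0.245 to 0.739). In the 2 mesenchymal clusters Tgfb1 differed in opposite directions. The cluster led by Cxcl13 and Ccl19, chemokines of lymphoid stroma, held 36.7 CPM in ORFTOC and 10.3 CPM in FTOC (3.56, 1.45 to 11.3), the latter from 5 UMIs in 31 cells. The cluster led by the matrix genes Spp1 and Col8a1 held 63.7 and 132 CPM (0.484, 0.363 to 0.654), from 187 and 64 UMIs. The mesenchyme of ORFTOC could hold both fetal thymus cells and the added fibroblasts, which cannot be told apart here.

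Tgfb2 was a stromal ligand in these cultures. The Spp1 and Col8a1 mesenchymal cluster was highest at 86.8 CPM over both pools (77.2 to 97.3), followed by airway-like epithelial cells, which express secretory genes such as Bpifa1, at 56.5 CPM (50.3 to 63.2). The Cxcl13 and Ccl19 cluster held 50.4 CPM, within counting error of the airway-like cells. Ionocyte-like epithelial cells held 27.4 CPM (16.2 to 43.3) and Aire mTEC-like cells, the medullary TECs that express the autoimmune regulator, 16.9 CPM (11.7 to 23.6). The cTEC-like cells, which carry cortical genes, stood at 0.856 CPM (0.233 to 2.19). No UMI was found in 7 immune populations, among them cycling thymocyte-like cells, where the interval reached up to 0.380 CPM. In epithelial cells Tgfb2 stood at 18.2 CPM in ORFTOC and at 10.6 in FTOC (ratio 1.72, 1.40 to 2.13). Airway-like cells themselves held 58.8 and 48.2 CPM (1.22, 0.913 to 1.65), and numbered 347 in ORFTOC and 109 in FTOC. With levels alone changed the epithelial log2 ratio was 0.27, and with the class mix alone 0.66. In mesenchymal cells Tgfb2 stood at 71.4 CPM in ORFTOC and at 78.3 in FTOC (0.912, 0.709 to 1.19), a log2 ratio of -0.13 that turned to 0.91 with the other hashtag rule. By cluster the ratio was 0.714 in the Spp1 and Col8a1 cluster, with its interval below 1. In the Cxcl13 and Ccl19 cluster it was 1.28, with an interval that held 1.

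Tgfb3 was found in nearly every epithelial population. Ionocyte-like cells were highest at 62.4 CPM over both pools (44.8 to 84.6), within counting error of the Spp1 and Col8a1 mesenchyme (53.5), of the cluster led by Ndufa4l2 and Igfbp2 (51.8) and of the cluster led by Lypd1 and Ms4a10 (49.1). Aire mTEC-like cells had 2 UMIs in ORFTOC and none in FTOC, 0.993 CPM over both pools (0.120 to 3.59), the lowest value among epithelial cells. In airway-like cells Tgfb3 stood at 32.0 CPM in ORFTOC (135 UMIs) and 9.15 CPM in FTOC (11 UMIs), a ratio of 3.5 (1.9 to 7.18). In the cluster led by Rgs5 and Ccl11 it stood at 29.7 and 19.2 CPM (1.54, 1.15 to 2.08). The clusters led by Ndufa4l2 and by Lypd1 held nearly the same level in both pools, 53.2 and 51.2 CPM (1.04, 0.77 to 1.39) and 50.3 and 48.2 CPM (1.04, 0.773 to 1.40). Summed over the epithelium Tgfb3 stood at 32.2 CPM in ORFTOC and at 30.2 in FTOC (1.07, 0.933 to 1.22). With levels alone changed the epithelial log2 ratio was 0.29, and with the class mix alone -0.43, beside 0.09 as observed. In mesenchymal cells Tgfb3 stood at 46.9 and 44.3 CPM (1.06, 0.760 to 1.5). This log2 ratio of 0.08 rose to 1.29 with the other hashtag rule. Of the 43 FTOC UMIs there, 24 came from 3 cells with Y-linked UMIs and no Xist. Cells with Xist and no Y-linked UMI held 36.7 CPM in ORFTOC (76 UMIs) and 22.6 in FTOC (19 UMIs).

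**Figure D3:**
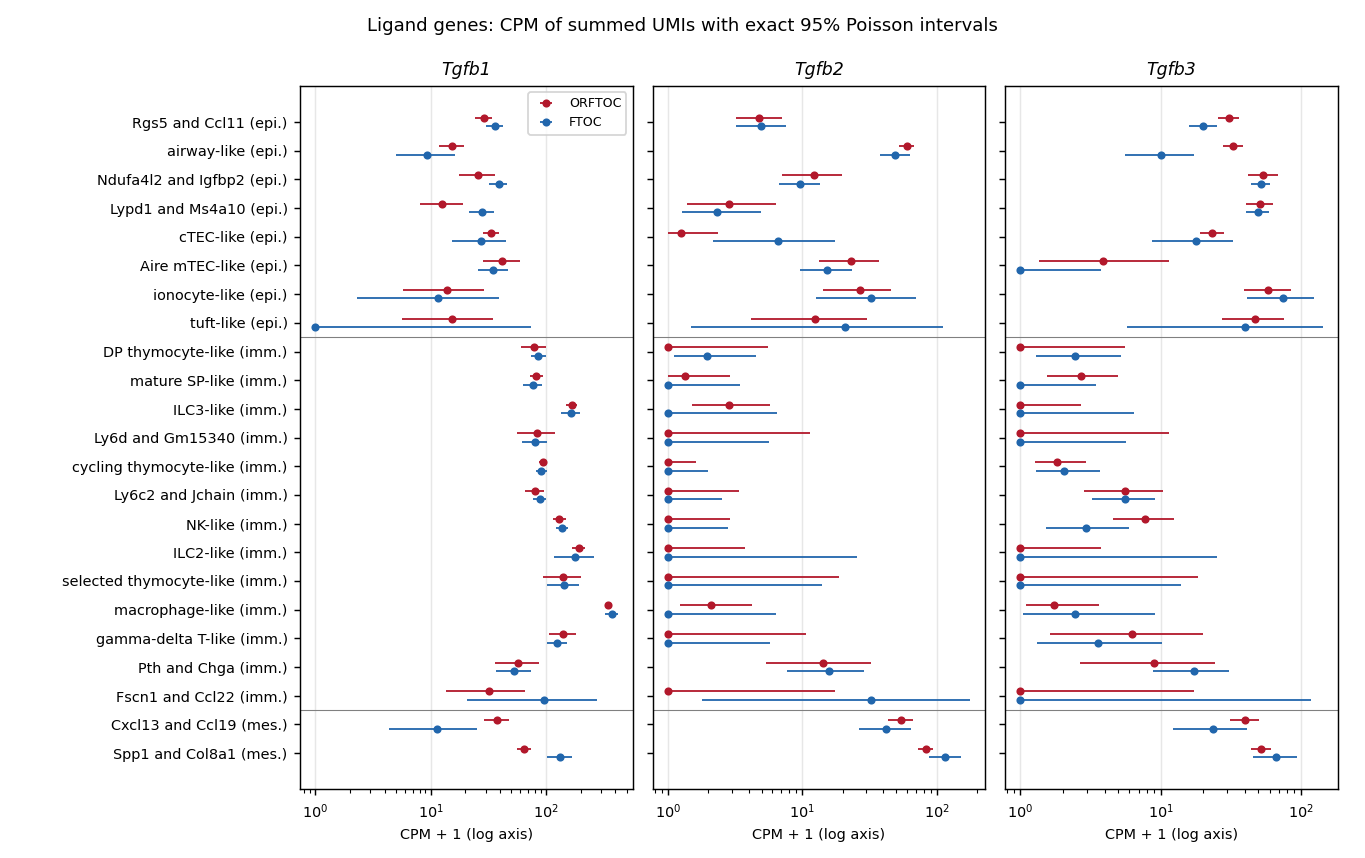
CPM + 1 of Tgfb1, Tgfb2 and Tgfb3 in each population (log axis), with ORFTOC and FTOC as separate points and exact 95% Poisson intervals as bars. Tgfb1 is highest in macrophage-like cells (343 and 369 CPM), Tgfb2 in the Spp1 and Col8a1 mesenchyme (82.1 and 115 CPM), and Tgfb3 lies between 48.2 and 53.2 CPM in the clusters led by Ndufa4l2 and by Lypd1 in both pools.

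Tgfbr1 encodes the type I receptor, the kinase that phosphorylates Smads. It was highest in macrophage-like cells, at 121 CPM in ORFTOC and 109.8 in FTOC (ratio 1.10, 0.854 to 1.43), and next in DP thymocyte-like cells, at 94.2 and 77.1 CPM (1.22, 0.917 to 1.62). The latter cells had few UMIs, with medians of 1496 and 1539 per cell. Mature SP-like cells held 17.0 and 19.3 CPM, well below DP thymocyte-like cells in both pools. In epithelial cells Tgfbr1 stood at 42.5 CPM in ORFTOC and at 35.8 in FTOC (1.19, 1.06 to 1.34), with airway-like cells (47.1 over both pools), cTEC-like cells (46.3) and the Rgs5 and Ccl11 cluster (44.4) within counting error of each other. Aire mTEC-like cells were lowest of all populations at 13.9 CPM over both pools (9.24 to 20.1), within counting error of tuft-like (15.1) and gamma-delta T-like cells (15.5), among others. In mesenchymal cells the gene stood at 24.1 and 31.9 CPM (0.754, 0.503 to 1.16).

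Tgfbr2 encodes the type II receptor, which binds the ligand first. The Spp1 and Col8a1 mesenchyme was highest over both pools at 241 CPM. It held 249 CPM in ORFTOC and 195 in FTOC (ratio 1.28, 1.03 to 1.60). In the Cxcl13 and Ccl19 mesenchyme the order was opposite, at 122 and 184 CPM (0.666, 0.517 to 0.863), and the mesenchymal sums were close, at 202 and 189 CPM (1.07, 0.911 to 1.26). ILC3-like cells were the highest immune population, at 196 and 224 CPM (0.873, 0.723 to 1.06). In FTOC they stood above the Spp1 and Col8a1 mesenchyme. Among thymocytes DP-like cells, the highest for Tgfbr1, were below selected and mature SP-like cells. DP thymocyte-like cells held 54.5 and 65.5 CPM, selected thymocyte-like cells 134 and 159.6 CPM, and mature SP-like cells 109.8 and 145 CPM (0.759, 0.637 to 0.905). Macrophage-like cells held 100.2 and 141 CPM (0.713, 0.563 to 0.909). In epithelial cells Tgfbr2 stood at 30.4 CPM in ORFTOC and at 27.3 in FTOC (1.11, 0.967 to 1.28), with cTEC-like cells highest at 45.0 and 58.0 CPM. Aire mTEC-like cells were again lowest, with 1 UMI in ORFTOC and 4 in FTOC, 2.48 CPM over both pools (0.806 to 5.80). This interval overlapped those of tuft-like cells (7.53, 1.55 to 22.0) and of the cluster led by Fscn1 and Ccl22 (11.7, 2.42 to 34.3). Aire mTEC-like cells thus had the lowest values of the 23 populations for both receptors, though counting error did not separate them from the next lowest. Their median depth was 16559.5 UMIs per cell in ORFTOC and 20058 in FTOC.

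**Figure D4:**
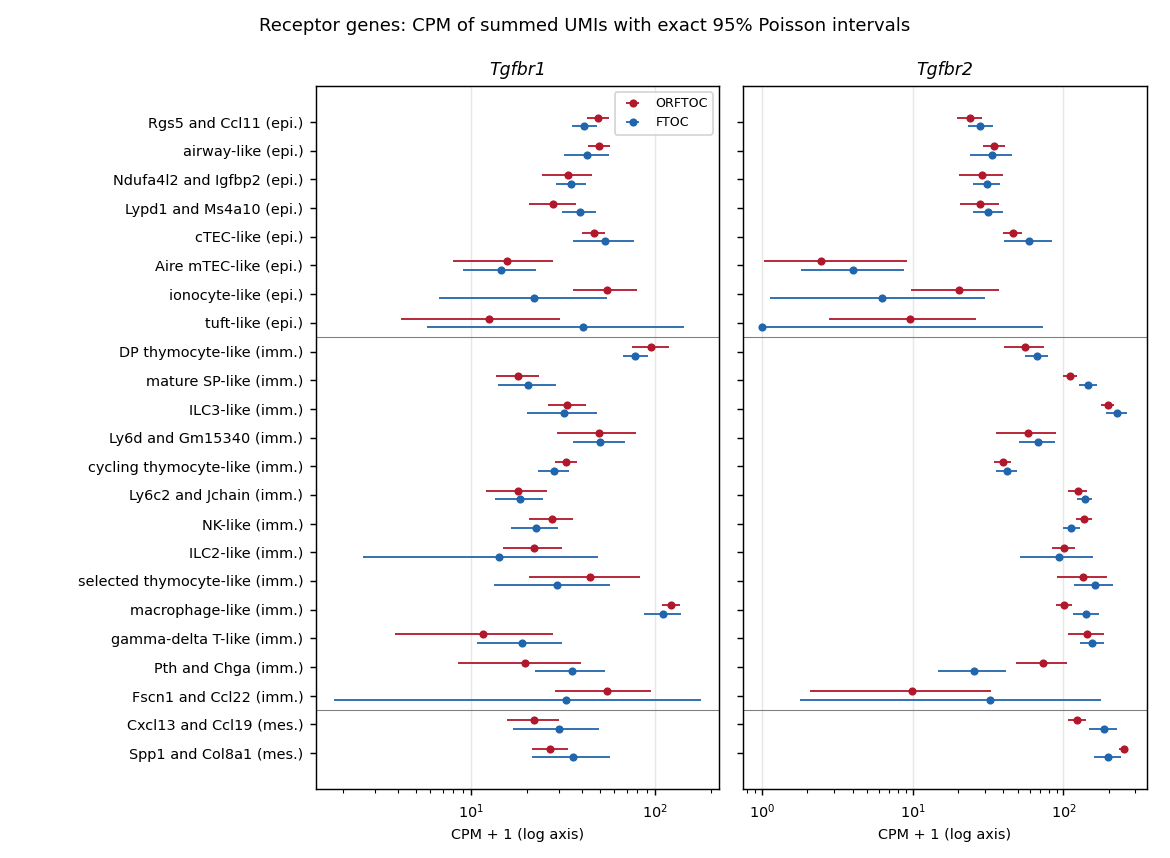
CPM + 1 of Tgfbr1 and Tgfbr2 in each population (log axis), with ORFTOC and FTOC as separate points and exact 95% Poisson intervals as bars. DP thymocyte-like cells are high for Tgfbr1 (94.2 and 77.1 CPM) and mature SP-like cells for Tgfbr2 (109.8 and 145 CPM), and Aire mTEC-like cells are low for both.

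Pmepa1 encodes a membrane protein that is induced by TGF-β and limits Smad signalling. In epithelial cells it stood at 179 CPM in ORFTOC (3083 UMIs, 173 to 185) and 27.4 CPM in FTOC (342 UMIs, 24.6 to 30.5), a ratio of 6.53 (5.83 to 7.32). This was higher than the ratio of 99.8% of the genes that reached 10 CPM. A UMI was found in 68.3% of ORFTOC and 23.1% of FTOC epithelial cells, at median depths of 13347 and 12135 UMIs. After cells were thinned to 1000 UMIs the shares were 16.5% and 3.23%. ILC3-like cells, the population with the lowest level over both pools, held a UMI in 9.47% and 7.87% of cells at median depths of 4661 and 5263 UMIs. The values held when sex-linked UMIs were taken into account. In cells with Xist and no Y-linked UMI Pmepa1 stood at 185 CPM in ORFTOC and at 27.2 in FTOC, and ORFTOC cells with Y-linked UMIs and no Xist held 162 CPM.

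The epithelial difference was present in each population with at least 20 cells of both pools. Airway-like cells held 289 CPM in ORFTOC and 68.2 in FTOC (ratio 4.24, 3.39 to 5.37), the highest epithelial level in both pools. In cTEC-like cells Pmepa1 stood at 156 and 29.9 CPM (5.22, 3.19 to 9.19), the latter from 16 UMIs in 32 cells. The Rgs5 and Ccl11 cluster held 144 and 32.9 CPM (4.38, 3.61 to 5.35), the Lypd1 and Ms4a10 cluster 147 and 27.7 CPM (5.32, 4.01 to 7.15), and the Ndufa4l2 and Igfbp2 cluster 156 and 14.7 CPM (10.6, 7.64 to 14.9). Of the populations with at least 20 cells of both pools, Aire mTEC-like cells had the lowest levels and the highest ratio, with 72.9 CPM in ORFTOC (50 UMIs, of which 16 in a single cell) and 5.27 in FTOC (7 UMIs), at 13.8 (6.24 to 36.2). Ionocyte-like cells held 137 and 21.0 CPM (6.52, 2.43 to 24.7), with 4 UMIs in FTOC. Tuft-like cells had 22 UMIs in ORFTOC and none in the 4 FTOC cells. Of the 9539 epithelial genes, 9 (0.0943%) were at least 2-fold higher in ORFTOC in each of the 6 populations with at least 20 cells of both pools, namely C3, Ddx3y, Eif2s3y, Gpx2, Lox, Palmd, Pde9a, Pmepa1 and Rasl11a, and 2 (0.021%), Bex2 and Gstt2, were at least 2-fold lower in each. Ddx3y and Eif2s3y are Y-linked. When the ORFTOC levels were weighted by the FTOC class shares the log2 ratio was 2.49, beside 2.71 as observed, and with the class mix alone it was 0.43. Macrophage markers summed to 82.1 CPM in ORFTOC and 37.1 in FTOC epithelial cells and mesenchymal markers to 57.0 and 29.9 CPM. By population the sums in ORFTOC and FTOC were highest for mesenchymal markers in the Ndufa4l2 and Igfbp2 cluster (284 and 56.9 CPM) and for macrophage markers in ionocyte-like cells (336 and 110.3 CPM). Aire mTEC-like cells held 219 and 108 CPM of macrophage and 203 and 88.9 CPM of mesenchymal markers. The part of these in the Pmepa1 difference was not tested.

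Outside the epithelium Pmepa1 differed less between the pools, and it was close in the immune sum. Immune cells held 129.6 CPM in ORFTOC and 127 in FTOC (ratio 1.02, 0.966 to 1.09). DP thymocyte-like cells stood at 166 and 201 CPM (0.827, 0.676 to 1.01), mature SP-like cells at 158 and 143 (1.11, 0.938 to 1.31) and cycling thymocyte-like cells at 94.4 and 101 CPM (0.934, 0.818 to 1.07). Selected thymocyte-like cells held 230 and 152 CPM (1.51, 0.977 to 2.33), from 48 and 43 UMIs. Levels in NK-like cells were 139.5 and 94.7 CPM (1.47, 1.22 to 1.78) and in macrophage-like cells 221 and 167 CPM (1.32, 1.08 to 1.63), where 1 FTOC cell held 41 of 114 UMIs. ILC3-like cells held 25.3 and 14.7 CPM, and over both pools their level of 22.7 CPM was the lowest of the 23 populations, within counting error of Aire mTEC-like cells (28.3). The exception in size was a cluster led by Pth and Chga, which held epithelial and immune markers together and stayed unnamed, with 131 CPM in ORFTOC and 39.2 in FTOC (3.34, 2.01 to 5.69). In mesenchymal cells, which had the highest level, Pmepa1 stood at 629 and 479.9 CPM (1.31, 1.19 to 1.45). The log2 ratio there ran from 0.23 to 0.70 over the alternatives of the processing. Mesenchymal cells with Xist and no Y-linked UMI held 617 CPM in ORFTOC and 414 in FTOC. The Spp1 and Col8a1 cluster held 747 and 655 CPM (1.14, 1.01 to 1.29) and the Cxcl13 and Ccl19 cluster 426 and 303 CPM (1.41, 1.18 to 1.69).

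Tgfbi encodes a secreted adhesion protein of the extracellular matrix, first found as a TGF-β-induced gene. In immune cells it stood at 112 CPM in ORFTOC (2344 UMIs) and 21.1 CPM in FTOC (333 UMIs), a ratio of 5.32 (4.74 to 5.99). Macrophage-like cells held 99.1% of these UMIs in ORFTOC and 87.4% in FTOC, although they were 141 of 2811 immune cells (5.02%) and 45 of 3128 (1.44%). The 7 macrophage markers summed to 3599.6 CPM in ORFTOC and 1022 CPM in FTOC immune cells. Without the macrophage-like cluster the order turned: the other immune cells held 22 UMIs in ORFTOC, 1.21 CPM, and 42 in FTOC, 2.78 CPM, a log2 ratio of -1.20. Both levels were below the 39.1 CPM of barcodes without cells, and the mixed Pth and Chga cluster held 10 of the 22 and 23 of the 42 UMIs. Within macrophage-like cells Tgfbi stood at 859 CPM in ORFTOC (824 to 894) and 426 CPM in FTOC (379 to 478), a ratio of 2.01 (1.78 to 2.28), and the markers themselves at 27519.9 and 22242 CPM. A UMI was found in 87.9% and 64.4% of these cells, against 0.414% and 0.403% of DP thymocyte-like cells (median depths 19534 and 15447 against 1496 and 1539 UMIs). The FTOC value rested on few cells, 1 of which held 74 of the 291 UMIs. In the immune sum the levels alone gave a log2 ratio of 0.88 and the class mix alone 1.44, beside 2.41 as observed. Immune cells with Xist and no Y-linked UMI held 143 CPM of Tgfbi in ORFTOC and 23.4 in FTOC.

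Epithelial Tgfbi differed by population more than by pool. The sums were 97.6 CPM in ORFTOC and 76.3 in FTOC (ratio 1.28, 1.18 to 1.39). It was carried by 3 clusters. The cluster led by Lypd1 and Ms4a10 held 290.1 and 109 CPM (2.65, 2.27 to 3.11), the cluster led by Ndufa4l2 and Igfbp2 217 and 74.9 CPM (2.90, 2.42 to 3.46), and the cluster led by Rgs5 and Ccl11 186 and 119 CPM (1.57, 1.39 to 1.76). Airway-like cells, the epithelial population with the most Pmepa1, had 3.56 and 3.33 CPM, and cTEC-like cells 16.0 and 20.6 CPM (0.776, 0.407 to 1.63). Aire mTEC-like cells held 26.3 and 3.77 CPM (6.97, 2.49 to 24.0), from 18 and 5 UMIs, beside the marker sums given above. Macrophage markers in the 3 high clusters summed to at most 67.5 CPM in ORFTOC and 30.1 in FTOC, and mesenchymal markers to at most 284 and 56.9 CPM, both in the Ndufa4l2 and Igfbp2 cluster. Their part in the Tgfbi difference was not tested. With the ORFTOC levels at the FTOC class mix the epithelial log2 ratio was 1.13, and with the mix alone it was -0.53, beside 0.36 as observed.

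In mesenchymal cells Tgfbi stood at 94.2 CPM in ORFTOC (438 UMIs) and 45.3 CPM in FTOC (44 UMIs), a ratio of 2.08 (1.52 to 2.90). With that other hashtag rule, which left 29 FTOC mesenchymal cells, the log2 ratio was 2.10 in place of 1.06. In cells with Xist and no Y-linked UMI Tgfbi stood at 112 CPM in 104 ORFTOC cells and 40.5 CPM in 50 FTOC cells. The Cxcl13 and Ccl19 cluster held 107 and 39.2 CPM (2.73, 1.70 to 4.64) and the Spp1 and Col8a1 cluster 86.6 and 51.4 CPM (1.68, 1.11 to 2.65). Macrophage markers summed to 74.6 CPM in ORFTOC and 21.6 in FTOC mesenchymal cells, and 3 of the 7 were at 0 in FTOC. Their part in the difference was not tested. Thymocytes and lymphoid cells were near 0: NK-like and gamma-delta T-like cells had no Tgfbi UMI in either pool, and mature SP-like cells had 1 and 2. ILC3-like cells had 3 UMIs in ORFTOC and 5 in FTOC, 1.40 and 7.37 CPM (0.190, 0.0296 to 0.979), below the 39.1 CPM of barcodes without cells.

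**Figure D5:**
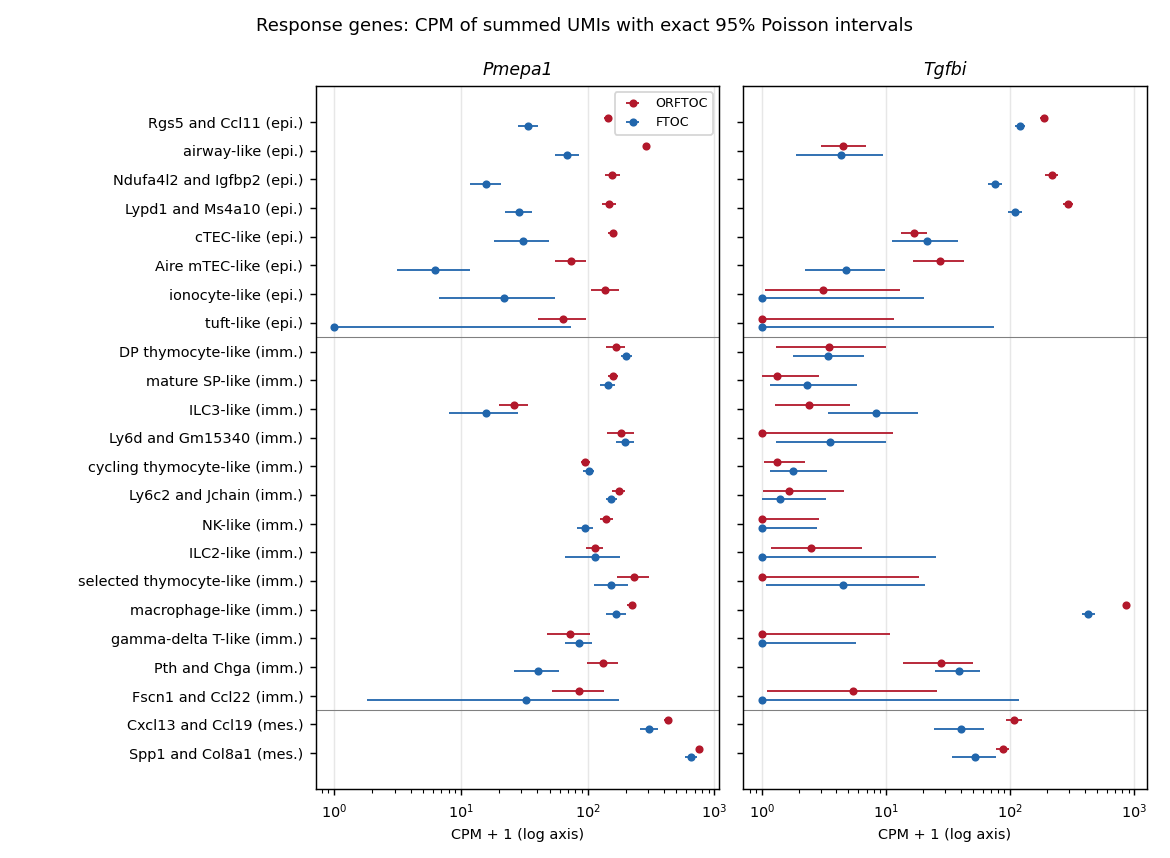
CPM + 1 of Pmepa1 and Tgfbi in each population (log axis), with ORFTOC and FTOC as separate points and exact 95% Poisson intervals as bars. Pmepa1 is higher in ORFTOC in the epithelial populations and higher by less in both mesenchymal clusters. It is close between pools in DP thymocyte-like, mature SP-like and cycling thymocyte-like cells. Tgfbi is highest in macrophage-like cells, at 859 and 426 CPM.

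The genes around the members were counted over lists of the pathway, 55 genes in all, and a list gene is called measured where it reached 10 CPM in the higher pool. The highest and lowest ratios of a list are named among its genes that reached 20 CPM in 1 pool or both. In epithelial cells 42 of them reached 10 CPM, of which 8 were past 2-fold higher and 2 past 2-fold lower in ORFTOC, beside 3.4% and 2.44% of all genes. The median log2 ratio of the 42 was 0.49. Among 12 genes of the latent complex and its activation, 8 were measured and 3 were past 2-fold, all higher. Ltbp2, a latent TGF-β binding protein of the matrix, stood at 58.1 CPM in ORFTOC and at 22.0 in FTOC (2.63, 2.30 to 3.02) and its relative Ltbp1 at 22.6 and 10.9 CPM (2.07, 1.70 to 2.54). The third was Lrrc32, which tethers latent TGF-β to the cell surface, at 13.9 and 3.37 CPM (4.12, 2.96 to 5.86), and Ltbp3 lay just under 2-fold at 108 and 55.9 CPM (1.93, 1.77 to 2.11). Itgav, an integrin subunit that helps release the ligand, had a ratio of 1.31 and the processing protease Furin 1.11.

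Of the 3 co-receptors only Tgfbr3 (betaglycan), which presents the ligand to the type II receptor, was measured in epithelial cells, and it was lower in ORFTOC, at 21.9 against 47.9 CPM (0.457, 0.401 to 0.521). Among 14 Smads and regulators, all measured, 1 was past 2-fold. This was Smad7, the inhibitory Smad, at 29.0 CPM in ORFTOC and 10.9 in FTOC (2.66, 2.19 to 3.24). Among the regulators with at least 20 CPM in 1 pool or both, the corepressors Ski (1.89) and Skil (1.80) followed, while Smad4 (0.904), Smad2 (0.944) and Zfyve9 (0.998) had the lowest ratios. Among 19 further response genes 15 were measured, 4 past 2-fold higher and 1 lower. Timp1, an inhibitor of matrix metalloproteinases, stood at 153 and 29.3 CPM (5.21, 4.67 to 5.83), Ccn2, a matricellular protein, at 21.1 and 6.57 CPM (3.21, 2.52 to 4.12), and the others were Ltbp2 and Ccn1, a relative of Ccn2, at 256 and 104 CPM. Lrrc32 and Ccn1 were named after their values were seen, to complete the counts. The intermediate filament gene Vim was lower in ORFTOC, at 46.5 and 112 CPM (0.415, 0.380 to 0.453), and Snai2 (0.534) and Tgfb1i1 (0.829) had the next lowest ratios. Of 8 genes of the related activin branch 5 were measured. Inhba, which encodes an activin subunit, was past 2-fold at 35.2 and 7.06 CPM (4.99, 3.98 to 6.31), and the activin antagonist Fst had a ratio of 0.773.

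In immune cells 23 of the 55 genes reached 10 CPM, 3 were past 2-fold higher and none lower, beside 3.54% and 1.37% of all genes. The 3 were response genes, of 7 measured. Fn1, which encodes fibronectin, stood at 48.3 CPM in ORFTOC and at 2.97 in FTOC (16.2, 12.1 to 22.3), the cell-cycle inhibitor Cdkn1a at 73.8 and 23.5 (3.14, 2.80 to 3.53) and the AP-1 gene Junb at 1149 and 526 CPM (2.18, 2.13 to 2.24). Macrophage markers summed to 3599.6 and 1022 CPM in these cells, and ILC2-like cells, whose leading genes include Fos and Jun, numbered 233 in ORFTOC and 19 in FTOC. Their part in these ratios was not tested. Without the macrophage-like cluster 2 pathway genes were past 2-fold higher and 1 lower. Tsc22d1 (0.609), Itgae (0.9), an integrin subunit of intraepithelial T cells, and Vim (1.77) had the lowest ratios of that list. Of 12 Smads and regulators measured, none was past 2-fold, and among those with at least 20 CPM the ratios were highest for Ski (1.38), Skil (1.21) and Smurf2 (1.16) and lowest for Smad4 (0.892), Ppm1a (0.927) and Tgif1 (1.04). The 3 measured genes of the latent complex, Furin (1.25), Itgav (1.19) and Nrros (1.07), were not past 2-fold, nor was the 1 measured co-receptor, and no activin gene was measured.

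In mesenchymal cells 48 of the 55 genes reached 10 CPM, 3 were past 2-fold higher and 2 lower, beside 2.52% and 4.27% of all genes. Ltbp2 had the highest ratio of them, with 164 CPM in ORFTOC and 51.5 in FTOC (3.18, 2.39 to 4.32), followed by Ccn2 with 122 and 42.2 CPM (2.89, 2.11 to 4.07) and Lrrc32 with 22.4 and 10.3 CPM (2.17, 1.14 to 4.66). The co-receptor Eng (endoglin), known from endothelium and mesenchyme, was lower in ORFTOC at 30.3 and 95.8 CPM (0.317, 0.242 to 0.416). Fstl3, which binds activins, stood at 8.60 and 30.9 CPM (0.278, 0.169 to 0.463). None of 13 Smads and regulators was past 2-fold, and among those with at least 20 CPM in 1 pool or both Smad7 (1.96, 1.10 to 3.79), Tgif1 (1.44) and Smurf1 (1.28) were highest and Smad3 (0.672), Smurf2 (0.777), Smad4 and Zfyve9 (both 0.835) lowest. Of the 18 measured response genes Cdkn1a (1.84) came next to Ltbp2 and Ccn2, and the lowest ratios belonged to Postn, a matrix protein gene (0.644, 0.609 to 0.683), Snai2 (0.822) and Timp1 (0.871). Timp1, past 2-fold in the epithelium, was thus not higher in ORFTOC mesenchyme, where it stood at 1509.7 and 1733 CPM. Of the 9 measured genes of the latent complex Thbs1 came next to Ltbp2 and Lrrc32 with 1.62, and Ltbp1 (0.661), Furin (0.695) and Itgav (0.937) were lowest. The other co-receptors Tgfbr3 (0.786) and Acvrl1 (1.00) and the activin genes Inhba (1.72), Inhbb (1.36) and Fst (1.28) were not past 2-fold.

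The genes most alike to each member were found over 42 populations by pool with at least 20 cells, as Pearson's r of log2(CPM + 10) among 12552 genes. All these points share 1 lane and the r values are descriptions. Tgfb2 was closest to Cd276 (r = 0.925), Cdc42ep1 (0.922) and Gstm2 (0.919). Among the genes most like Tgfb3 were Pkd2 (0.906) and Lamb1 (0.897). Tgfb1 was closest to Nagpa (0.845), Cotl1 (0.842) and Otulinl (0.841), and Tgfbi to Speg (0.862), Lgmn (0.854), Akr1b8 (0.843), Mmp9 (0.823) and Apoe (0.819), of which Lgmn and Apoe are known from macrophages. Tgfbr2 was closest to Rasa3 (0.832) and Zfp36l2 (0.822), and Tgfbr1 to Atp6ap2 (0.769) and Pak1 (0.754). Pmepa1 had the weakest likeness, with Gsn (0.692) and Mgat1 (0.645), and none of the genes named for 1 member was named for another.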

How the data were processed

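Per the labels and methods, the authors aligned reads of the 5′ gene expression library to mm10 with Cell Ranger 6.1.2 and analysed them with Seurat 4.2.0. The header of the deposited matrix names another major version of Cell Ranger, and whether this bears on the counts was not tested. The authors deposited raw UMI counts per gene for all 705161 barcodes (103984163 UMIs), with the hashtag counts in the same matrix. These values were used as deposited. The hashtag name table served only to pair hashtags with pools, and the T-cell receptor contig lists were not used here.

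Cells were kept with at least 600 genes and 0.4 to 10% mitochondrial UMIs (10245 cells), the limits of the study. HTODemux assigned the hashtags (positive quantile 0.99), which gave 8983 singlets, 590 doublets between pools and 672 negatives. A further 591 doublets within pools were removed by a neighbour rule (50 neighbours, 50 principal components) written to follow the study's caller, which was not installed. Cells were clustered after SCTransform with cell cycle regression on 18 principal components, at resolution 0.4, or 1 for immune cells. Compartments and clusters were named from marker lists: a class needed a mean log2 fold of its markers of at least 1 (pseudocount 10 CPM), a lead of 0.5, at least 3 markers detected in 5% of cells, no other class with more markers among the 10 leading genes, and no second compartment. A cluster with a median UMI count under 33.3% of its pool's and no own marker among the leading genes also stayed unnamed. These limits were set after the leading genes were seen.

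UMIs were summed per pool and population and divided by the total. As each pool is 1 sample, no test was made. A change is called past 2-fold, and shares of genes use those that reached 10 CPM in at least 1 pool. A ratio against 0 UMIs is not given. For the class mix, the CPM of each population in 1 pool was weighted by the UMI shares of the other. Pathway genes were named as the up to 3 highest and 3 lowest ratios per list among genes with at least 20 CPM. Members and lists were chosen with earlier results of these data known. The ratio and its interval were tested on simulated pool sums with Poisson counts, which lack the clumping of UMIs in single cells. Hashtag calls, clustering and naming were not part of this. The versions were pandas 2.3.3, scipy 1.17.1, numpy 2.4.6, Python 3.11.15, sctransform 0.4.2, Seurat 5.3.0 and R 4.3.3. Alternatives were another gene minimum, hashtag rule, doublet handling, normalisation, clustering, scaling, weighting, ambient correction and cell selection. Leaving out the macrophage-like or the mixed cluster, and all alternatives for pathway counts, were added after seeing the data. A gene among those most alike to a member is not reported here.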

Additional observations from a re-analysis of the deposited data

Results flagged for a closer look

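In 2 pairs of populations of 1 compartment a member was past 2-fold in opposite directions with both intervals apart from 1, and the difference between the populations was not tested. Tgfbi had a log2 ratio, ORFTOC over FTOC, of 1.01 in macrophage-like cells (2322 and 291 UMIs) and -2.39 in ILC3-like cells (3 and 5 UMIs). Tgfb1 had a log2 ratio of 1.83 in the mesenchymal cluster led by Cxcl13 and Ccl19 (63 and 5 UMIs) and -1.05 in the cluster led by Spp1 and Col8a1 (187 and 64 UMIs). The lower counts of both pairs rest on few molecules.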

How the results depend on the processing

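Over the alternatives listed at the start the log2 ratio of Pmepa1 in epithelial cells ran from 2.39 (the 80% hashtag rule) to 2.87 (ambient profile subtracted), and that of Tgfbi in immune cells from 2.40 to 2.61 (cells with Xist and no Y-linked UMI). Under that hashtag rule the members past 2-fold in mesenchymal cells numbered 2 (Tgfbi at 2.10 and Tgfb3 at 1.29), on 306 ORFTOC and 29 FTOC cells. Without the macrophage-like cluster the immune log2 ratio of Tgfbi turned to -1.20 and 0 members were past 2-fold, where that cluster held 99.1% of the ORFTOC and 87.4% of the FTOC UMIs. The other 58 values of these results stayed within their limits. Of 311 further values, 271 stayed within them and 40 moved (30 higher, 10 lower); the cause was not tested. Among these, Pmepa1 in immune cells ran from -0.26 to 0.10 over these alternatives and Tgfb2 there, with 13 and 12 UMIs, from -0.58 to 1.37. Pathway genes past 2-fold lower numbered 2 in epithelial cells, but 1 under the hashtag rule and with doublets within a pool kept, and 0 in immune cells, but up to 2 with the ambient profile subtracted; those higher in immune cells numbered 3, but 5 under the hashtag rule, and in mesenchymal cells 3, but 5 without cells holding a marker of another compartment. With a filter of 1 UMI in each pool the share of all genes past 2-fold was 13.2% in epithelial, 12.5% in immune and 18.2% in mesenchymal cells. Centring on the median gene moved log2 ratios by at most 0.09. No paired analysis was possible because each pool is 1 sample. The FTOC mesenchymal and macrophage-like levels rest on 55 and 45 cells.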
